A study of Mus musculus with 39 samples.

Results

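The 10 enzymes of glycolysis, Hk1, Hk2, Gpi1, Pfkl, Pfkp, Aldoa, Pgam1, Eno1, Ldha and Ldhb, were followed from the unfertilized mouse oocyte to 2-cell embryos made by fertilization or by somatic cell nuclear transfer (SCNT), and in the cumulus cells whose nuclei were transferred. They are 10 of the 18905 genes that could be named on the array, chosen by name as all probes whose transcript accession carries 1 of these symbols in the RefSeq mouse annotation (no threshold on a measured value was used, but earlier results of these data were known). All samples were of (B6xDBA/2)F1 mice. OC were unfertilized metaphase II oocytes (7 arrays). IVF were in vitro fertilized embryos (6 arrays). TSA(-) and TSA(+) were SCNT embryos with cumulus cell nuclei, untreated (8 arrays) or given 5 nM trichostatin A (TSA), an inhibitor of histone deacetylases, for 8 h from activation (6 arrays). Spi-C NT were the same kind of SCNT embryo, without TSA, injected at the pronuclear stage with mRNA of the transcription factor Spi-C at 1.0 or 0.1 mg/ml (4 arrays each). Cumulus were the donor cells (4 arrays). IVF and SCNT embryos had been cultured for 24 h. Each array held RNA of 10 pooled oocytes or embryos, or of 500 cumulus cells, after 2 rounds of linear amplification, so that differences between single embryos were not measured.

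Glycolysis splits glucose into pyruvate, and lactate dehydrogenase exchanges pyruvate with lactate. Hexokinases (Hk1, Hk2) trap glucose in the cell, glucose phosphate isomerase (Gpi1) rearranges the sugar, phosphofructokinase (Pfkl, Pfkp) makes the committed step, aldolase (Aldoa) splits the sugar, phosphoglycerate mutase (Pgam1) and enolase (Eno1) act near the end, and Ldha and Ldhb encode the subunits of lactate dehydrogenase. Mouse oocytes and early cleavage embryos are known to live mainly on pyruvate and lactate and to take up glucose poorly, whereas cumulus cells are strongly glycolytic and pass pyruvate on to the oocyte. Mouse oocytes are also known for a lactate dehydrogenase made almost wholly of the B subunit.

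A level is the log2 intensity of a probe relative to the 75th percentile of its array, so that 0 means as bright as that percentile. It gives the share of a transcript in the amplified RNA and not an amount per embryo or cell, and fewer cells of a type and less RNA per cell cannot be told apart. Levels of different probes cannot be set against each other. The 75th percentile lay between 271 and 512 intensity units in OC and between 792 and 2666 in all other groups, and 48.6 to 59.9% of probes were well above background in OC against 58.2 to 77.5% elsewhere. Summed levels of 10 oocyte markers were 2542 to 4111 in OC, 367 to 684 in the embryos and 1 to 1.97 in Cumulus, and those of 15 cumulus markers were 327 to 367 in Cumulus and at most 11.7 in any oocyte or embryo array. These sums thus told oocytes, embryos and cumulus cells apart as labelled, and they do not check the stage or treatment of an embryo. Summed levels of 5 markers of the 2-cell stage were 138 to 186 in IVF, 28.2 to 118 in the SCNT groups, 26.9 to 42.3 in OC, which overlaps the SCNT range, and 0.0233 to 0.135 in Cumulus, and those of 4 blood and immune cell markers were 1.15 to 1.94 in Spi-C NT, 2.02 to 4.54 in Cumulus and at most 0.827 elsewhere. Amh and Pgr, of the cumulus list, were not well above background on any Cumulus array. In Cumulus, Bmp15, Figla, Mos, Nlrp5, Oosp1, Zar1 and Zp2 were not well above background on any array. Cumulus and Spi-C NT arrays were scanned on slides, days and a scanner model of their own, so for any difference between them and the other groups group and scan cannot be told apart. The 2 Spi-C NT groups shared slides and a scan day, as did OC, IVF, TSA(-) and TSA(+) with each other, apart from TSA(-) replicate 3, which shared neither and enters no value within scan days.

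The array carried 18 probes for the 10 enzymes, all of which passed the intensity filter, and each enzyme is given by its brightest probe. For 6 enzymes there was a single probe. The paired probes of Aldoa and of Ldha moved alike, those of Pfkp did not, and the 5 further Hk1 probes were dim, with group means of -8.56 to -4.40. Even so, the brightest of them was well above background on 6 of 7 OC arrays, 7 of 8 TSA(-) arrays and all arrays of the other groups. The used Hk1 probe answers to another transcript (NM_001146100) than those 5 (NM_010438), so that the values below are of 1 Hk1 transcript form. Genes and pseudogenes nearly identical to Aldoa, Pgam1, Eno1, Ldha and Ldhb exist in the mouse, and probes of these 5 may also bind their transcripts.

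The RefSeq promoter windows (GRCm38.p6, 250 bases before to 50 after each start) held 16 entries for the 10 enzymes. The hexokinases and the lactate dehydrogenases are shown because the members of these pairs moved furthest in opposite directions from OC to IVF. The 250 bases before a start are given 5′ to 3′ on the strand of the gene, with ACGTG (the core of the sequence bound by hypoxia-inducible factors) and GGGCGG (the GC box) in capitals on either strand. A palindromic CACGTG (an E-box) counts as 1 ACGTG on each strand. The 4 stretches are chr7:46845554-46845803, plus strand, for Ldha, chr6:142507958-142508207, minus strand, for Ldhb, chr6:82774455-82774704, minus strand, for Hk2, and chr10:62340422-62340671, minus strand, for 1 of 2 starts of Hk1.
Ldha: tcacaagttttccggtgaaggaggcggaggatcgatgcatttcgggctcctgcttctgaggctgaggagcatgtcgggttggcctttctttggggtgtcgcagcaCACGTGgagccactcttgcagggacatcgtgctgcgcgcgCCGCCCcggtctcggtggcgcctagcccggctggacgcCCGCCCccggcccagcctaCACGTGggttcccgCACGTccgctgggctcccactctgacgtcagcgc
Ldhb: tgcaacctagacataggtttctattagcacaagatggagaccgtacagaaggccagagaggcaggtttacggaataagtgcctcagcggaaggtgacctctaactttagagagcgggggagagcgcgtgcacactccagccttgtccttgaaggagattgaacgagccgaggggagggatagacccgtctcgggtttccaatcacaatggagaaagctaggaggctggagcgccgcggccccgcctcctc
Hk2: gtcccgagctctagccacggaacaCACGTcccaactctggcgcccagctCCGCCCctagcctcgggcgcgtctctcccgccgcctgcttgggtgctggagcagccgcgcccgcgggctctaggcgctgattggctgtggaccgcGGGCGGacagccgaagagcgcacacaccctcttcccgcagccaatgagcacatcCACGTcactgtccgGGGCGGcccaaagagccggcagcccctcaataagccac
Hk1: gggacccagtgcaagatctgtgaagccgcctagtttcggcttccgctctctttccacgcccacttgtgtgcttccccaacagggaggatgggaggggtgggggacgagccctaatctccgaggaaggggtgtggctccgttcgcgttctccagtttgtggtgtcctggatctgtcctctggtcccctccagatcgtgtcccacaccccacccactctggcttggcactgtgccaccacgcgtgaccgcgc
In these 250 bases Ldha held 5 matches to ACGTG and 2 to GGGCGG, Hk2 held 2 and 3, and Ldhb and Hk1 held none of either. The Hk1 window held 2 matches to ACGTG in the 50 bases after the start, and the windows of the other Hk1 start and of the other Ldha start held none of either motif. Over whole windows, ACGTG was found in 6 of the 16 windows of the enzymes and in 19.6% of all 32851 windows of the table, CACGTG in 1 of 16 and in 7.2%, and GGGCGG in 10 of 16 and in 35.7%. Windows of 1 gene overlap in Aldoa and Eno1. A match describes the letters only, and no binding was measured here.

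The 10 enzymes fell into 2 patterns. From OC to IVF the levels of Hk1, Gpi1, Pfkp, Aldoa, Eno1 and Ldha rose and those of Hk2, Pfkl, Pgam1 and Ldhb fell, all at an adjusted p under 0.01 (limma), though the direction turned for Pgam1 with quantile normalization and for Eno1 with another background correction. Cumulus had the highest level of the 7 groups for 9 of the 10, and the lowest for Ldhb. The order of the SCNT groups among themselves mostly lay within the spread of the arrays, as the plot of all arrays shows.

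**Figure D1:**
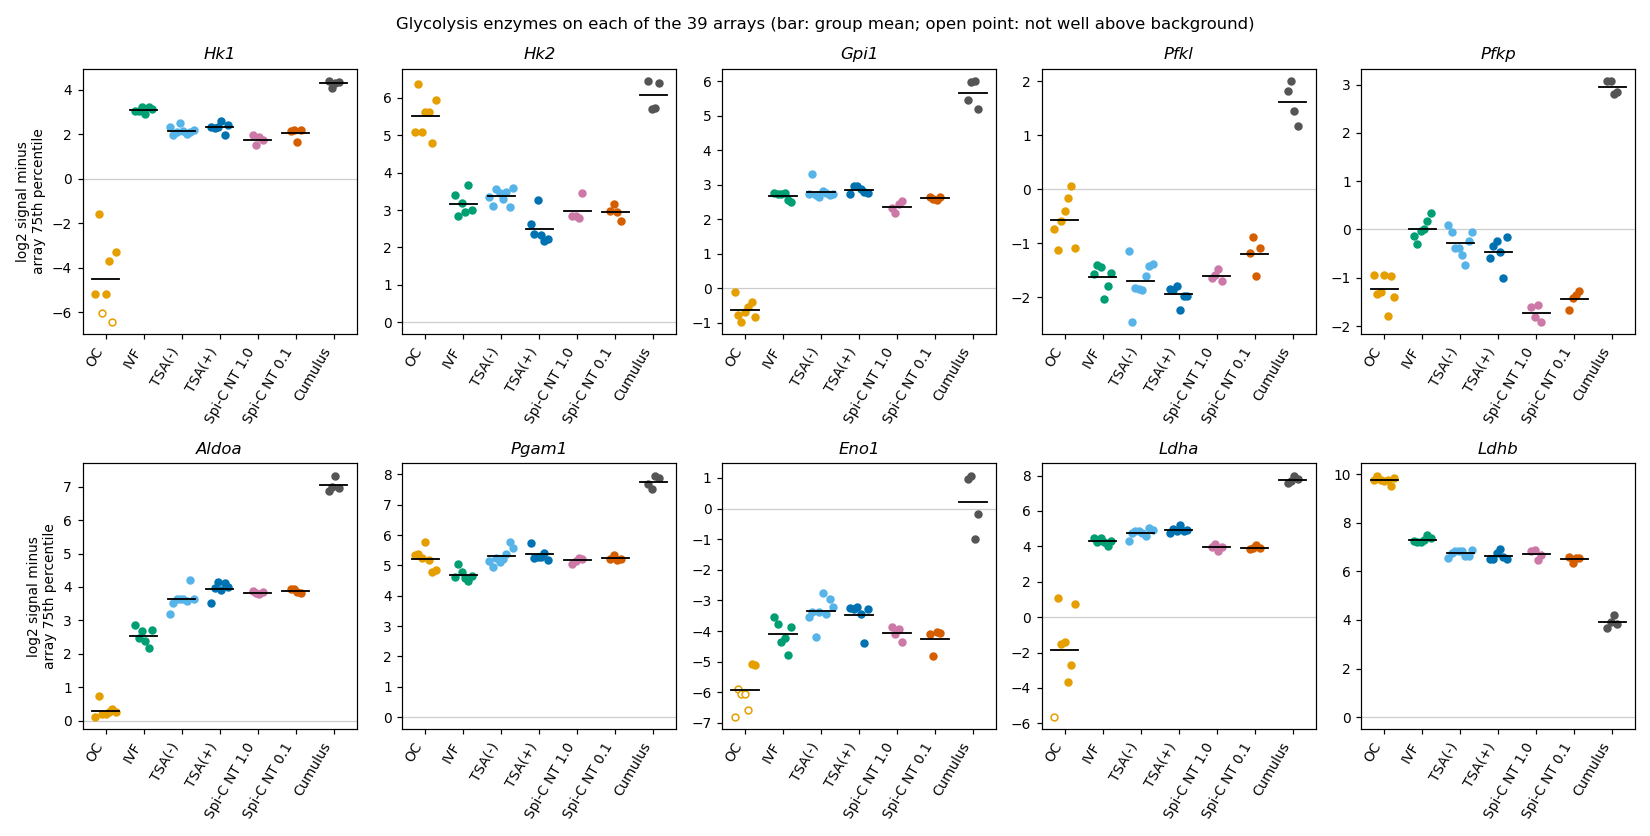
Level of each enzyme (log2 intensity minus the 75th percentile of the array, y axis) on all 39 arrays by group (x axis); bars are group means and open points are arrays on which the probe was not well above background. Cumulus stands highest in 9 panels and lowest for Ldhb, and the 7 OC arrays spread widely for Hk1 (from -6.46 to -1.59) and Ldha (from -5.65 to 1.08).

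At the entry step, the hexokinase genes moved in opposite directions. Hk1, the housekeeping hexokinase, ranged in OC from -6.46 to -1.59 with a median of -5.17, was well above background on 5 of the 7 arrays, and reached 2.90 to 3.24 (median 3.11) in IVF. Hk2, the inducible hexokinase of muscle, fat and many tumours, ranged from 4.79 to 6.37 (median 5.61) in OC and from 2.84 to 3.66 (median 3.09) in IVF. The OC and IVF arrays did not overlap for either gene. The difference of IVF minus OC was 7.6 ± 0.45 (SE) for Hk1, a 194-fold rise (adjusted p = 3.82e-15), and -2.33 ± 0.22 for Hk2, a 5.02-fold fall (adjusted p = 1.33e-10). Within the 4 scan days that held both groups, the Hk1 difference was 4.65 to 8.81 and the Hk2 difference -2.98 to -2.03. None of the 5 dim Hk1 probes rose: 1 fell and 4 did not pass the test. The Hk1 difference was 5.52 with normexp, another background correction, and 0.80 with all its probes averaged. The size of the Hk2 fall depended on the scaling. Over the 14 other settings its difference ranged from -3.01 to -0.60, with the call kept. It was -1.45 after the shift of all probes (-0.88) was taken off.

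In SCNT embryos Hk1 stood below IVF. TSA(-) ranged from 1.97 to 2.50 (median 2.13) and TSA(+) from 1.98 to 2.59 (median 2.33), the Spi-C NT 1.0 arrays stood at 1.95, 1.5, 1.88 and 1.73, and the Spi-C NT 0.1 arrays at 2.14, 2.19, 1.67 and 2.20. All 22 SCNT arrays lay below all 6 IVF arrays. The difference of TSA(-) minus IVF was -0.94 ± 0.44 (adjusted p = 0.119, limma), in a fit whose spread includes the OC arrays (SD 1.72, against 0.13 in IVF and 0.17 in TSA(-)). With these groups compared alone it was -0.94 ± 0.11 (adjusted p = 2.95e-05), and within the 4 shared scan days it was -1.09 to -0.63. Spi-C NT minus IVF was -1.2 ± 0.12 (adjusted p = 5.32e-09), but 0.14 (adjusted p = 0.614) when the dim probes were averaged in, and it was not called with all 7 groups in 1 fit (adjusted p = 0.0159). TSA(+) minus IVF was -0.78 ± 0.47 (adjusted p = 0.226), and -0.78 (adjusted p = 0.000515) with these groups compared alone. Cumulus stood at 4.42, 4.08, 4.33 and 4.38, above all other arrays. Cumulus minus IVF was 1.2 ± 0.53 (adjusted p = 0.0484), and 1.2 ± 0.15 (adjusted p = 4.25e-05) with the groups compared alone.

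Hk2 was the enzyme with the largest difference between TSA(+) and TSA(-). TSA(-) ranged from 3.09 to 3.59 (median 3.40), while TSA(+) stood at 2.63, 2.37, 3.26, 2.32, 2.17 and 2.22. Of the TSA(+) arrays, 5 lay below all 8 TSA(-) arrays and replicate 3 lay among them. The difference was -0.87 ± 0.21, or 1.82-fold lower, and did not pass the threshold of 0.01 (adjusted p = 0.0388, limma). It passed with Tukey's HSD, the study's own test. Within the 3 shared scan days it was -0.63, -0.36 and -1.16. The summed cumulus marker level was 8.54 to 11.7 in TSA(+) and 4.73 to 9.16 in TSA(-), and its part in this difference was not tested. Spi-C NT 1.0 arrays stood at 2.84, 2.84, 2.80 and 3.45 and 0.1 arrays at 2.98, 3.16, 2.96 and 2.72, with means (2.98 and 2.96) between those of TSA(-) and TSA(+). In Cumulus Hk2 stood at 6.46, 5.70, 5.74 and 6.40, near the OC level: the difference of 0.57 ± 0.25 did not pass (adjusted p = 0.0389), and it did pass with median centring (0.79, adjusted p = 0.00461), normexp (0.66, adjusted p = 0.00824) and quantile normalization (2.23, adjusted p = 4.30e-10).

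In the upper pathway, Gpi1 rose from -0.99 to -0.12 (median -0.68) in OC to 2.50 to 2.77 (median 2.72) in IVF, a difference of 3.30 ± 0.15 or 9.82-fold (adjusted p = 7.35e-18). TSA(-) ranged from 2.64 to 3.30 and TSA(+) from 2.74 to 2.97, and neither difference from IVF passed the test (0.13 and 0.18, adjusted p = 0.58 and 0.423). The Spi-C NT 1.0 arrays stood at 2.33, 2.17, 2.44 and 2.53 and the 0.1 arrays at 2.63, 2.60, 2.56 and 2.64. Spi-C NT minus TSA(-) was -0.31 ± 0.09 (adjusted p = 0.0115), past the threshold under 6 of the 14 other settings. Cumulus stood at 5.45, 5.99, 6.02 and 5.21, 7.97-fold above IVF (adjusted p = 2.32e-15).

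At the committed step, the liver-type phosphofructokinase Pfkl fell and the platelet-type Pfkp rose from oocyte to embryo. Pfkl ranged from -1.12 to 0.07 (median -0.58) in OC and from -2.03 to -1.40 (median -1.55) in IVF, a difference of -1.05 ± 0.20 (adjusted p = 3.71e-05), close to the shift of all probes (-0.88). The differences of TSA(-), TSA(+) and Spi-C NT from IVF in Pfkl were -0.06, -0.32 and 0.23, and none passed the test. Pfkp ranged from -1.79 to -0.95 (median -1.30) in OC and from -0.30 to 0.35 (median -0.02) in IVF, a difference of 1.25 ± 0.17 (adjusted p = 1.17e-07). Cumulus had 9.41-fold more Pfkl signal than IVF (adjusted p = 4.58e-13) and 7.71-fold more Pfkp signal (adjusted p = 3.89e-14).

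Pfkp gave the largest difference between Spi-C NT and the other SCNT embryos. The Spi-C NT 1.0 arrays stood at -1.60, -1.82, -1.57 and -1.92 and the 0.1 arrays at -1.67, -1.41, -1.36 and -1.28, while TSA(-) ranged from -0.74 to 0.09 (median -0.31) and TSA(+) from -1.0 to -0.15 (median -0.40). All 8 Spi-C NT arrays thus lay below all 14 TSA arrays. The difference of Spi-C NT minus TSA(-) was -1.29 ± 0.14 (adjusted p = 3.90e-08) and that of Spi-C NT minus IVF -1.59 ± 0.15 (adjusted p = 1.50e-09). The other Pfkp probe, with group means of -5.51 (OC) to -2.03 (Cumulus), did not show it: Spi-C NT minus TSA(-) was -0.14 there (adjusted p = 0.593), and Spi-C NT minus IVF was 0.91 in the opposite direction (adjusted p = 0.000183).

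Aldoa, the aldolase of muscle and most other tissues, rose in IVF and further in every SCNT group. Its level was 0.11 to 0.75 (median 0.26) in OC and 2.17 to 2.87 (median 2.58) in IVF. It reached 3.19 to 4.22 (median 3.64) in TSA(-) and 3.52 to 4.15 (median 3.99) in TSA(+). The Spi-C NT 1.0 arrays stood at 3.88, 3.82, 3.78 and 3.84 and the 0.1 arrays at 3.93, 3.94, 3.85 and 3.81. All 22 SCNT arrays lay above all 6 IVF arrays. The difference from IVF was 1.09 ± 0.15 for TSA(-) (2.13-fold, adjusted p = 1.73e-06), 1.40 ± 0.16 for TSA(+) (2.63-fold, adjusted p = 9.47e-08) and 1.31 ± 0.13 for Spi-C NT (2.47-fold, adjusted p = 3.96e-09), and the other Aldoa probe gave 1.12, 1.39 and 1.29, each called. Within the 4 scan days shared by TSA(-) and IVF it was 0.65 to 1.51. The Aldoa differences of TSA(+) and of Spi-C NT from TSA(-), and that between the Spi-C doses, did not pass the test, and Cumulus (6.87, 7.0, 7.33 and 6.97) stood 22.5-fold above IVF (adjusted p = 2.31e-19). In the same embryos the summed level of the cumulus markers was 5.16 to 8.94 in IVF, 4.73 to 9.16 in TSA(-) and 8.54 to 11.7 in TSA(+). It was 5.08 to 6.31 and 6.56 to 7.56 in Spi-C NT 1.0 and 0.1. Its part in the Aldoa difference was not tested.

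In the lower pathway, Pgam1 had the narrowest range of group means of the 10 in oocytes and embryos, from 4.69 to 5.36. It ranged from 4.78 to 5.77 (median 5.26) in OC, and from 4.49 to 5.04 (median 4.63) in IVF. The SCNT arrays ranged from 4.95 to 5.78 (median 5.24) in TSA(-), from 5.19 to 5.75 (median 5.28) in TSA(+) and from 5.06 to 5.33 in Spi-C NT. The difference of IVF minus OC was -0.53 ± 0.16 (adjusted p = 0.00397), with overlapping arrays. It was smaller than the shift of all probes, was 1.18 (adjusted p = 1.16e-09) after quantile normalization, and was not called with normexp (-0.34, adjusted p = 0.0203) or with the groups compared alone (adjusted p = 0.0212). It also lost its call without IVF replicate 5 or OC replicate 4. Against IVF, Pgam1 was higher in TSA(-) by 0.61 ± 0.15 (adjusted p = 0.00314, lost without IVF replicate 5), in TSA(+) by 0.67 ± 0.16 (adjusted p = 0.00247) and in Spi-C NT by 0.51 ± 0.12 (adjusted p = 0.000843, but 0.35 and adjusted p = 0.0368 with median centring). Cumulus stood at 7.68, 7.53, 7.96 and 7.88, 8.38-fold above IVF (adjusted p = 4.64e-15).

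The Eno1 probe was dim. Of the 7 OC arrays, where it ranged from -6.81 to -5.08, 2 had it well above background, as did all arrays of the other groups, at -4.78 to -3.55 in IVF, -4.18 to -2.77 in TSA(-) and 0.96, 1.08, -0.98 and -0.17 in Cumulus. The difference of IVF minus OC was 1.85 ± 0.32 (adjusted p = 7.78e-06), but -0.47 (adjusted p = 0.0341) after normexp, so its direction is not settled. Spi-C NT minus TSA(-) was -0.80 ± 0.20 (adjusted p = 0.00335), with overlapping arrays, and was not called with all 7 groups in 1 fit (adjusted p = 0.0262) or with the replicate number as a block (-0.75, adjusted p = 0.0292). Cumulus minus IVF was 4.31 ± 0.37 (adjusted p = 1.89e-11).

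At the exit step, the lactate dehydrogenase genes moved in opposite directions. Ldhb, the heart-type subunit that binds lactate well, was at 9.5 to 9.94 (median 9.75) in OC, the highest level of its probe, and at 7.20 to 7.49 (median 7.26) in IVF. Ldha, the muscle-type subunit that favours lactate production, ranged in OC from -5.65 to 1.08 (median -1.51), was well above background on 6 of the 7 arrays, and reached 4.0 to 4.49 (median 4.29) in IVF. The OC and IVF arrays lay apart for both. The difference of IVF minus OC was -2.45 ± 0.11 for Ldhb, a 5.47-fold fall (adjusted p = 1.41e-17), and 6.16 ± 0.62 for Ldha, a 71.7-fold rise (adjusted p = 4.87e-10). The other Ldha probe gave 5.64 (adjusted p = 1.38e-16). Without OC replicate 1, the lowest, the Ldha difference was 5.53 (adjusted p = 3.20e-11), and within the 4 shared scan days it was 3.42 to 7.91, against -2.69 to -2.39 for Ldhb. The size of the Ldhb fall depended on the scaling. Over the 14 other settings its difference ranged from -3.13 to -0.37, with the call kept. It was -1.58 after the shift of all probes (-0.88) was taken off.

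Among the OC arrays, replicates 2 and 7 had the highest Ldha (1.08 and 0.77) and also the highest Hk1 (-1.59 and -3.30). The summed cumulus marker level was 3.23 and 2.29 on these arrays and 1.6 to 4.09 over the 7 arrays. It was highest on replicates 4 (4.09) and 1 (3.29), where Ldha stood at -1.40 and -5.65 and Hk1 at -5.17 and -5.21. Whether cumulus RNA had a part in these levels was not tested. Leaving out replicate 2 or replicate 7 kept the calls of Ldha and Hk1 between IVF and OC.

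In SCNT embryos every array had less Ldhb than every IVF array. TSA(-) ranged from 6.54 to 6.86 (median 6.79), TSA(+) from 6.50 to 6.91 (median 6.56), and the Spi-C NT arrays stood at 6.82, 6.88, 6.46 and 6.69 with 1.0 mg/ml and at 6.60, 6.33, 6.56 and 6.55 with 0.1 mg/ml. The difference from IVF was -0.56 ± 0.11 for TSA(-) (adjusted p = 0.000276), -0.67 ± 0.12 for TSA(+) (adjusted p = 7.93e-05) and -0.69 ± 0.10 for Spi-C NT (adjusted p = 1.46e-06). After quantile normalization these were -0.36, -0.38 and -0.08 and none was called (adjusted p = 0.0161, 0.019 and 0.476), and with median centring the TSA(+) difference was not called either (-0.45, adjusted p = 0.0145). Ldha ranged from 4.28 to 5.03 (median 4.82) in TSA(-) and from 4.73 to 5.18 (median 4.92) in TSA(+), with differences from IVF of 0.47 and 0.64 that did not pass (adjusted p = 0.631 and 0.498). That fit takes in the spread of the OC arrays (SD 2.39, against 0.18 in IVF). With TSA(+) and IVF compared alone, where the arrays did not overlap, Ldha was called (0.64, adjusted p = 0.00193). With TSA(-) and IVF compared alone it was not (0.47 ± 0.14, adjusted p = 0.0165).

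Spi-C NT embryos had less Ldha than the TSA groups. The arrays stood at 3.99, 4.12, 3.76 and 3.97 with 1.0 mg/ml and at 3.85, 3.91, 4.05 and 3.90 with 0.1 mg/ml, below all 14 TSA arrays. The difference of Spi-C NT minus TSA(-) was -0.82 ± 0.10, a 1.76-fold fall (adjusted p = 4.80e-07), and -0.55 at the other Ldha probe (adjusted p = 9.70e-05). It was not called when all 7 groups shared 1 fit (adjusted p = 0.255), which takes in the spread of OC. Against IVF the difference of -0.35 ± 0.11 was just called (adjusted p = 0.00983), with overlapping arrays. That call was lost under 9 of 14 other settings and on leaving out any of 12 of the 14 arrays, that is, any but IVF replicate 5 and Spi-C NT 1.0 replicate 2 (range -0.41 to -0.31). In Cumulus Ldha stood at 7.59, 7.68, 8.00 and 7.81 and Ldhb at 3.67, 3.93, 4.21 and 3.82, so that Cumulus minus OC was 9.64 ± 0.70 for Ldha (adjusted p = 2.40e-13) and -5.84 ± 0.13 for Ldhb (adjusted p = 6.79e-26).

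**Figure D2:**
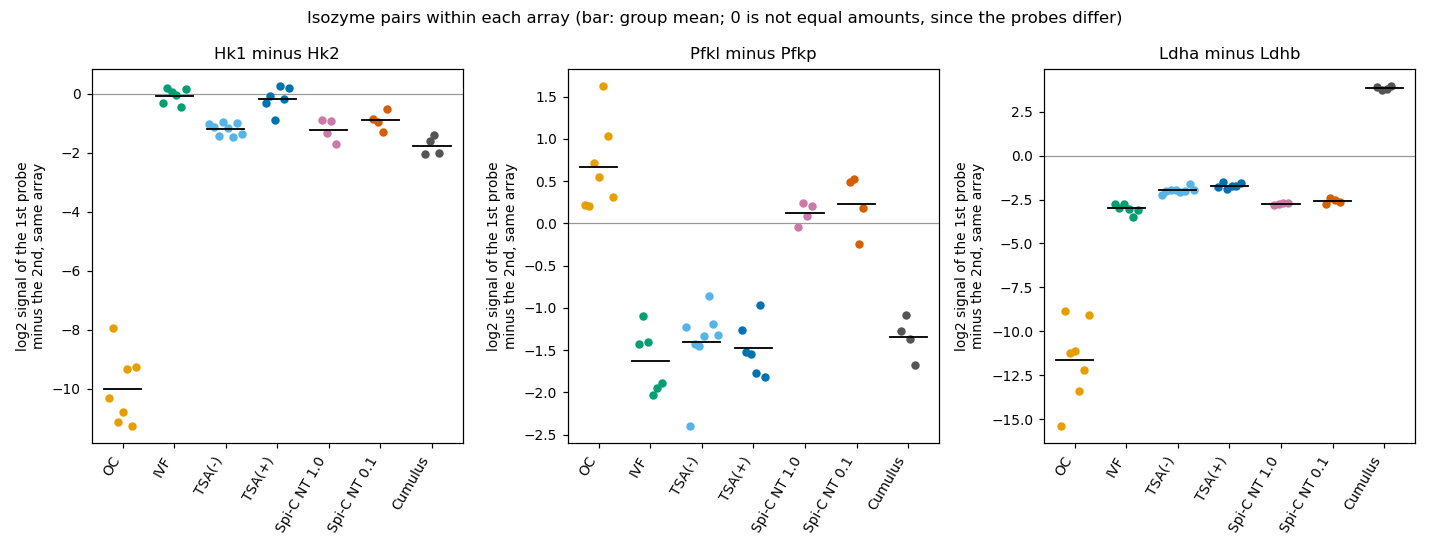
Difference in log2 intensity between the probes of 3 isozyme pairs on the same array (y axis) for the 39 arrays by group (x axis), with bars for group means. Ldha minus Ldhb rises from a mean of -11.62 in OC to -3.01 in IVF and 3.86 in Cumulus, and Pfkl minus Pfkp stands near 0 in Spi-C NT and near -1.40 in TSA(-).

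Within an array, the difference between 2 isozyme probes is free of the scaling of the array, and only its change between groups can be read. Ldha minus Ldhb was -11.62 ± 2.32 (SD, n = 7) in OC and -3.01 ± 0.27 (n = 6) in IVF. It was -1.98 ± 0.18 (n = 8) in TSA(-), -1.70 ± 0.15 (n = 6) in TSA(+), -2.75 ± 0.06 (n = 4) and -2.58 ± 0.15 (n = 4) in Spi-C NT 1.0 and 0.1, and 3.86 ± 0.11 (n = 4) in Cumulus. The TSA groups did not overlap with IVF, with Spi-C NT or with Cumulus, and the Spi-C NT arrays (-2.82 to -2.42) overlapped the IVF arrays (-3.49 to -2.73). Hk1 minus Hk2 was -10.00 ± 1.21 in OC and -0.07 ± 0.26 in IVF, against -7.59 and 0.11 with normexp and -11.32 and -8.19 with all probes averaged. It was -1.19 ± 0.21 in TSA(-), -0.17 ± 0.43 in TSA(+), -1.22 ± 0.39 and -0.91 ± 0.32 in Spi-C NT 1.0 and 0.1 and -1.77 ± 0.31 in Cumulus. The TSA(+) arrays (-0.91 to 0.27) thus spanned the IVF range (-0.44 to 0.20) and lay above the TSA(-) arrays (-1.48 to -0.96), as with normexp, but not when the dim Hk1 probes were averaged in. Both genes had lower means in TSA(+) than in IVF. TSA(+) minus IVF was -0.78 for Hk1 and -0.68 for Hk2, neither called (adjusted p = 0.226 and 0.0259, limma). Pfkl minus Pfkp was 0.67 ± 0.52 in OC and -1.63 ± 0.37 in IVF. It was -1.40 ± 0.44 in TSA(-), -1.48 ± 0.32 in TSA(+), 0.13 ± 0.13 and 0.24 ± 0.36 in Spi-C NT 1.0 and 0.1, and -1.35 ± 0.25 in Cumulus. With both Pfkp probes averaged, Spi-C NT (0.80 to 1.61) overlapped IVF (0.19 to 1.13).

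Counted by comparison, 6 enzymes rose and 4 fell from OC to IVF, where 27.4% of the 18595 named genes tested rose and 44.5% fell. Their median difference was 1.55, beside -0.73 over all genes. From OC to TSA(-), 6 rose and 3 fell, where 26.7% of genes rose and 49.6% fell, with medians of 1.77 and -1.0. Pgam1 was the enzyme without a call (0.08 ± 0.15, adjusted p = 0.615), and it was called lower with median centring (-0.57, adjusted p = 0.00144) and higher with quantile normalization (1.97, adjusted p = 2.68e-15). The calls against OC were lost for Hk1 with all its probes averaged (0.30, adjusted p = 0.207), for Hk2 with quantile normalization (-0.27, adjusted p = 0.198) and for Pfkp with median centring (0.29, adjusted p = 0.0892), and Eno1 turned to -0.12 with normexp (adjusted p = 0.554). The comparisons of IVF and TSA(-) with OC share the OC arrays. Cumulus exceeded OC in 8 enzymes (29.1% of genes higher) and was lower in 1, Ldhb (47% lower), and exceeded IVF in 8 (29.1% higher) and was lower in 1, again Ldhb (-3.39 ± 0.13, adjusted p = 1.99e-19, 35.2% lower). The median over the enzymes was 5.18 for Cumulus minus OC, beside -1.04 over all genes, and 3.03 for Cumulus minus IVF, beside -0.19.

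Against IVF, TSA(-) was higher in Aldoa and Pgam1 (2 of 10, where 10% of genes were higher) and lower in Ldhb (1 of 10, where 13.6% were lower). TSA(+) was called for the same 3 enzymes in the same directions (10.2% of genes higher and 14.2% lower). Spi-C NT was higher than IVF in Aldoa and Pgam1 (19.7% of genes) and lower in Hk1, Pfkp, Ldha and Ldhb (22.5% of genes). With 10 enzymes each call is 10%, so the counts for TSA(-) and TSA(+) lie near the background. The 3 comparisons share the IVF arrays. Against TSA(-), Spi-C NT was lower in 3 enzymes, Pfkp, Eno1 and Ldha (11.3% of genes lower), and higher in 0 (12.8% of genes higher). The TSA(-) arrays of this comparison also stand in the comparison of TSA(-) with IVF. In these 8 Spi-C NT arrays the blood and immune marker sum was above that of all other embryos, and its part in the enzyme differences was not tested.

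**Figure D3:**
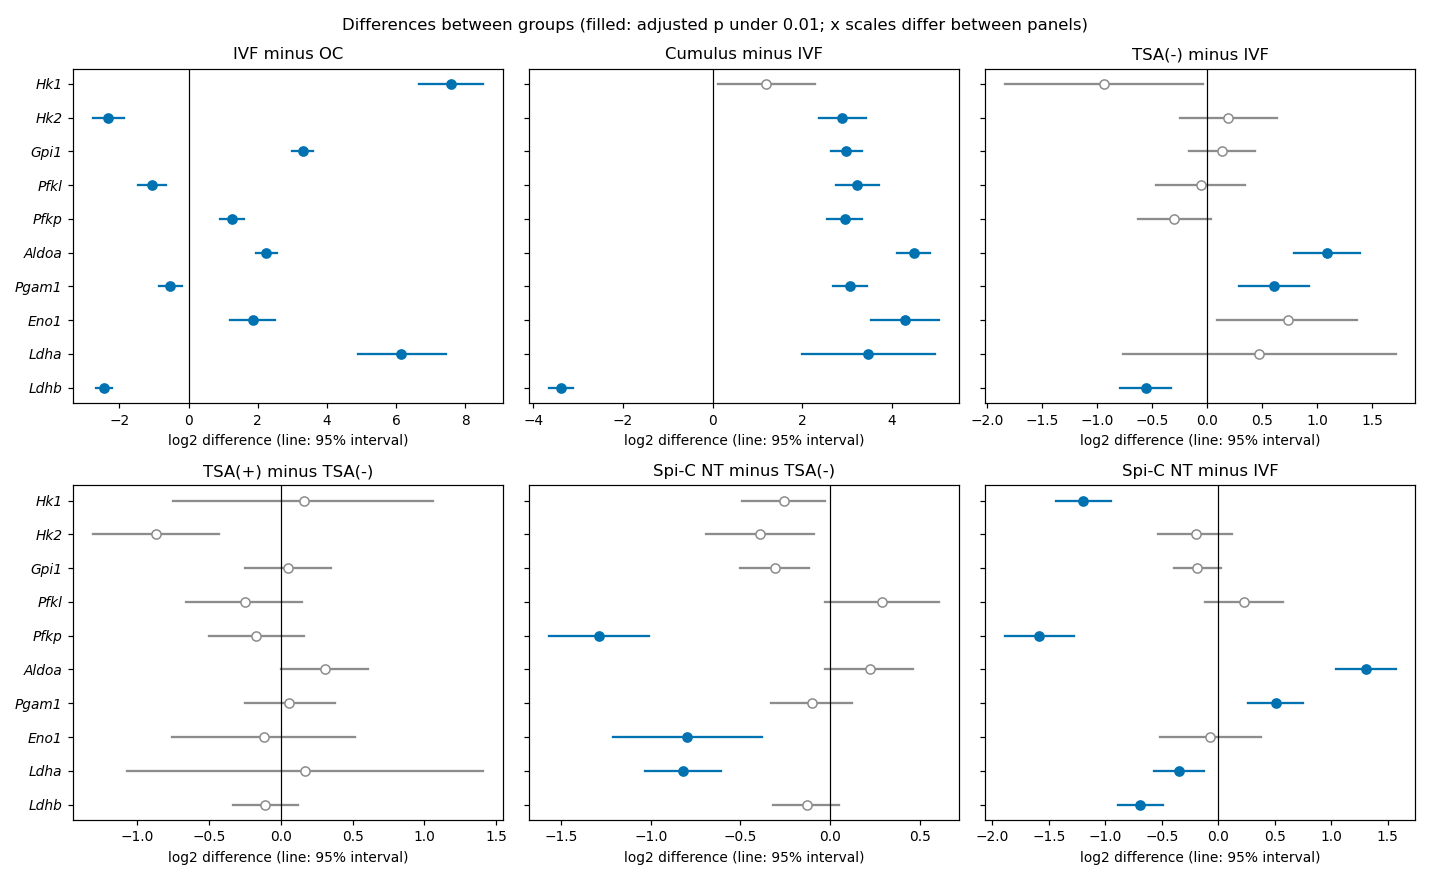
Log2 difference between groups (x axis, points, with lines for 95% intervals) of the 10 enzymes (y axis) in 6 comparisons; filled points passed an adjusted p under 0.01 (limma), and the x scales differ. All 10 are filled for IVF minus OC and none for TSA(+) minus TSA(-), where Hk2 stands at -0.87.

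Between TSA(+) and TSA(-), 0 of the 10 enzymes passed (limma), where 0.0645% of genes were higher and 0.043% lower. At an unadjusted p under 0.05 there were 2, Hk2 lower and Aldoa higher, and Tukey's HSD called 1, Hk2. The 95% intervals still allowed differences of -1.31 to -0.43 for Hk2, 0.00 to 0.61 for Aldoa, -0.75 to 1.06 for Hk1, -1.07 to 1.41 for Ldha and -0.33 to 0.12 for Ldhb. Those of Hk1 and Ldha come from a fit whose spread includes the OC arrays. With TSA(+) and TSA(-) compared alone, their differences were 0.16 ± 0.12 and 0.17 ± 0.13, neither called. The 2 doses of Spi-C mRNA were compared on shared slides. Between Spi-C NT 1.0 and 0.1, limma called 0 of 10 and 0% of genes in either direction, 0 enzymes had an unadjusted p under 0.05, and Tukey's HSD called 0. The largest difference was -0.41 ± 0.21 for Pfkl, with an interval of -0.84 to 0.02, and the widest interval was that of Eno1 (-0.41 to 0.78).

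The steps that the 10 enzymes leave out gave the values that follow. Tpi1, the triose phosphate isomerase next to aldolase, rose from a mean of -0.67 in OC to 2.99 in IVF (difference 3.66 ± 0.27, adjusted p = 7.28e-13), and Pkm, the pyruvate kinase that ends the pathway, from 0.33 to 2.26 (1.93 ± 0.20, adjusted p = 5.38e-10). Gapdh fell by 0.40 ± 0.12 (adjusted p = 0.00347), with overlapping arrays, and Pgk1, the phosphoglycerate kinase that follows it, fell by 0.96 ± 0.18 (adjusted p = 3.53e-05), which left 0.48 and -0.08 after the shift of all probes was taken off. Nearly identical copies of Gapdh, Tpi1 and Pkm in the genome may share their probes. All 4 were higher in Cumulus than in IVF, by 2.16 (Pkm) to 3.74 (Tpi1). Against IVF, TSA(-) had more Pgk1 (0.62 ± 0.18, adjusted p = 0.00914), and Spi-C NT had more Tpi1 (0.47 ± 0.08, adjusted p = 4.56e-05) and less Pkm (-0.76 ± 0.13, adjusted p = 1.52e-05). Spi-C NT also had less Pkm than TSA(-) (-0.49 ± 0.12, adjusted p = 0.00211). None of the 4 passed between TSA(+) and TSA(-), where their differences ranged from -0.17 to 0.16, or between the Spi-C concentrations.

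Of 22 other glycolysis genes, which include these 4, 12 rose and 6 fell from OC to IVF, with a median of 1.5, where 27.4% of all genes rose and 44.5% fell with a median of -0.73. Among genes whose arrays did not overlap, the largest rises were those of Pgk2, the phosphoglycerate kinase of sperm (6.52 ± 0.40), and of Eno3, the muscle enolase. Eno3 was not well above background on any OC array and rose at least 20.5-fold. Among such genes the largest falls were those of Eno4 (-6.43 ± 1.04) and of Adpgk, the ADP-dependent glucokinase (-6.08 ± 0.27). In Cumulus, Pgk2 and the sperm lactate dehydrogenase Ldhc were not well above background on any array and stood at least 237-fold and 128-fold below IVF, while Aldoc and Eno2, the brain forms of aldolase and enolase, stood 4.20 ± 0.39 and 3.91 ± 0.74 above it. Against IVF, 3 of the 22 were higher and 2 lower in TSA(-), beside 10% and 13.6% of all genes. In Spi-C NT, 5 were higher and 3 lower, beside 19.7% and 22.5%. Hkdc1, a hexokinase-like gene, was higher in TSA(-) than in IVF (1.88 ± 0.32, adjusted p = 3.97e-05) and Pgk2 lower (-1.98 ± 0.39, adjusted p = 0.000284). In Spi-C NT the differences of Hkdc1 and Pgk2 were 1.66 ± 0.15 and -2.14 ± 0.47 (adjusted p = 6.68e-10 and 0.000511).

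Of 16 regulators of glycolysis, 7 rose and 8 fell from OC to IVF (median -0.50, beside 27.4% and 44.5% of all genes). Myc, a transcription factor that drives glycolytic genes in many cells, was not well above background on any OC array and rose at least 17.7-fold, and Pgp, a phosphatase that clears toxic side products of glycolysis, rose by 6.82 ± 0.49. Hif1a, the oxygen-regulated subunit of a factor that binds ACGTG, fell by 5.14 ± 0.28, and Pfkfb2, which makes and breaks the activator of phosphofructokinase, fell by 4.7 ± 0.33. Against IVF, Pfkfb3, another such enzyme, was higher in TSA(-) (1.49 ± 0.18, adjusted p = 2.42e-07), TSA(+) (1.65 ± 0.19, adjusted p = 1.44e-07) and Spi-C NT (1.36 ± 0.13, adjusted p = 1.40e-09). In TSA(-) it was the sole higher regulator, beside 2 lower (Prkaa2 and Mlxip) and 13 without a call, where 10% of all genes were higher and 13.6% lower. Hif1a was higher in Spi-C NT than in TSA(-) by 0.88 ± 0.19 (adjusted p = 0.000799).

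Of 13 transporters of glucose, pyruvate and lactate, 6 rose and 4 fell from OC to IVF (median 0.94, beside 27.4% and 44.5% of all genes). The glucose transporters Slc2a3 and Slc2a8 rose by 6.26 ± 0.41 and 5.51 ± 0.41, and the glucose transporter Slc2a1 and the monocarboxylate transporter Slc16a8 fell by 1.79 ± 0.14 and 2.20 ± 0.17. In Cumulus, Slc16a3, the lactate exporter of glycolytic cells, stood 5.30 ± 0.24 above IVF and Slc2a1 2.91 ± 0.16 above it, while Slc2a3 stood 4.20 ± 0.47 below. Against IVF, 1 of the 13 (Slc2a5, a fructose transporter) was higher and 1 (Slc16a3) lower in TSA(-), beside 10% and 13.6% of all genes. Spi-C NT was lower than IVF in Slc2a3 (-1.33 ± 0.17, adjusted p = 3.40e-07) and in the pyruvate and lactate carrier Slc16a1 (-1.14 ± 0.12, adjusted p = 1.09e-08), and lower than TSA(-) in Slc16a1 (-0.79 ± 0.11, adjusted p = 3.01e-06).

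Of 19 genes of pyruvate use, 5 rose and 12 fell from OC to IVF (median -1.10), where 27.4% of all genes rose and 44.5% fell with a median of -0.73. Pdk2, a kinase that shuts pyruvate dehydrogenase, fell by 7.58 ± 0.96 and Pdp1, a phosphatase that opens it, by 4.06 ± 0.25, while Gpd1, which passes reducing equivalents to glycerol phosphate, rose by 7.18 ± 0.41 and Pdk4 at least 5.53-fold from a level not well above background in OC. Against IVF, TSA(-) was higher in 2 (Pdk1 and Pdk2) and lower in 5 of the 19, Mdh1 and 4 genes of the pyruvate dehydrogenase complex (Pdhx, Dld, Dlat and Pdha2). Of all genes, 10% were higher and 13.6% lower in this comparison. Mdh1, the cytosolic malate dehydrogenase, was lower in TSA(-) (-1.37 ± 0.16, adjusted p = 1.40e-07), TSA(+) (-1.33 ± 0.17, adjusted p = 7.48e-07) and Spi-C NT (-2.20 ± 0.12, adjusted p = 6.70e-14), and it was lower in Spi-C NT than in TSA(-) (-0.83 ± 0.11, adjusted p = 1.57e-06). Pdha2, the pyruvate dehydrogenase subunit of the testis, was lower than IVF by 6.39 ± 0.79 in TSA(-), where it was well above background on 3 of 8 arrays (adjusted p = 3.33e-07).

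In the pentose phosphate pathway, the branch that makes NADPH and ribose, 5 of 10 genes rose and 3 fell from OC to IVF (median 0.65, beside 27.4% and 44.5% of all genes). Tktl2 and Tktl1, transketolase-like genes, rose by 3.94 ± 0.46 and 3.65 ± 0.41, and H6pd and Taldo1 changed by -5.48 ± 0.57 and -4.14 ± 0.11. Against IVF, TSA(-) was lower in 4 (Rpe and Tktl1 besides those below), beside 13.6% of all genes. It was higher in 1, beside 10% of all genes, which was Taldo1 (0.52 ± 0.11, adjusted p = 0.000389). Of the lower genes whose arrays did not overlap, Tktl2 and G6pdx, the dehydrogenase at the entry of the branch, had the largest differences. That of Tktl2 was -6.19 ± 0.45 (adjusted p = 1.72e-11), with the gene well above background on 4 of 8 TSA(-) arrays. That of G6pdx was -1.42 ± 0.18 (adjusted p = 7.07e-07). Spi-C NT was lower than IVF in 6 of 10, beside 22.5% of all genes, and higher in 1, beside 19.7%, which was Tkt (0.87 ± 0.13, adjusted p = 2.38e-06).

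Of 16 genes of gluconeogenesis and glycogen, 7 rose and 6 fell from OC to IVF (median 0.51, beside 27.4% and 44.5% of all genes). The mitochondrial Pck2, which makes phosphoenolpyruvate, rose by 7.43 ± 0.33, and Gbe1, the glycogen branching enzyme, fell by 5.17 ± 0.35. TSA(-) was higher than IVF in 3 (Pygm, G6pc and Pgm2) and lower in 2 (Fbp1 and G6pc3), beside 10% and 13.6% of all genes. Pygm, the muscle glycogen phosphorylase, was higher by 1.83 ± 0.28 (adjusted p = 1.03e-05), and Fbp1, which opposes phosphofructokinase, was lower by 1.16 ± 0.24 (adjusted p = 0.000493). Over the 96 genes of these 6 lists, limma called 0 between TSA(+) and TSA(-), with 19 at an unadjusted p under 0.05 and 3 by Tukey's HSD (Myc, Slc16a3 and Mlxipl). These 3 and the genes of the lists given above without a value were named after their values had been seen. Between the Spi-C concentrations limma called 0 of 96, with 4 at an unadjusted p under 0.05 and 0 by Tukey's HSD.

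**Figure D4:**
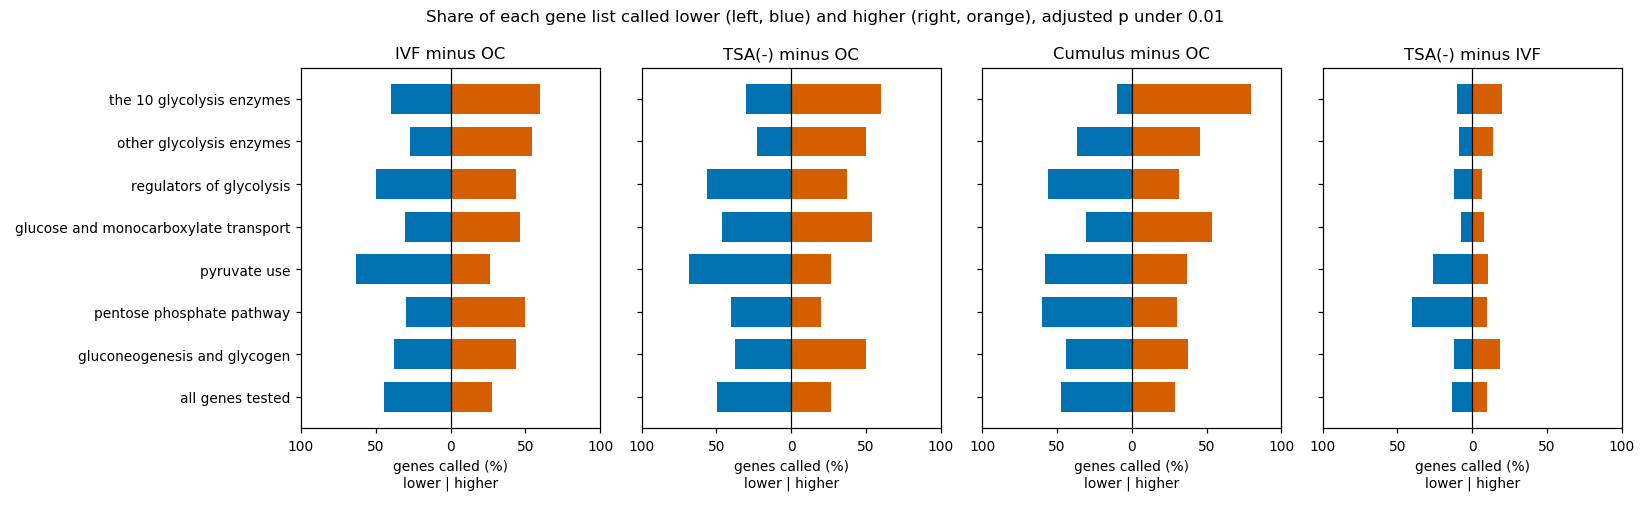
Share of the genes of each list (y axis) called lower (blue, to the left) or higher (orange, to the right) at an adjusted p under 0.01 (x axis, percent of the genes tested) in 4 comparisons. The 10 enzymes were higher in Cumulus than in OC for 8 of 10 genes, beside 29.1% of all genes tested.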

How the data were processed

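Gene expression was measured on 39 Agilent 1-colour arrays in 7 groups taken from the GEO labels. The authors scanned and quantified the arrays with Agilent Feature Extraction (9.5.3.1 per the submitters' processing notes; the headers of the Cumulus and Spi-C NT files give a later version and another scanner model) and deposited background-corrected processed intensity values per spot. The authors also deposited a table of processed log2 values, scaled by array at the 75th percentile and centred on each probe's median (array medians -0.30 to 1.08), which was used as an alternative only.

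Control spots and outlier-marked spots were left out (1820 missing values), spots of a probe were averaged, and log2 intensity minus the 75th percentile of each array was taken. Tests were run on 39520 of 41174 probes, those that reached an intensity of 10 on any array of an embryo group. Genes were named through transcript accessions in RefSeq (18905 genes, 18595 tested), each by its brightest probe over all arrays. Groups were compared with limma 3.58.1 in R 4.3.3 (lmFit, eBayes), with Benjamini-Hochberg adjustment over all probes tested and a threshold of 0.01. The comparisons among OC, IVF, TSA(-), TSA(+) and Cumulus came from 1 fit of these groups, and those with Spi-C NT from a fit of the embryo groups alone. Errors beside differences are standard errors and those beside means are SDs. The number of arrays limits the precision. The labels call the arrays biological replicates without naming animals, so p-values measure the spread between these pools.

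Where a gene was not well above background on any array of a group, the fold is a lower bound, from the mean of the bright group against, per array of the dim group, the higher of its own signal and the lowest signal of any probe well above background.

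The 10 enzymes and the gene and marker lists were chosen with earlier results of these data known. All 10 enzymes and the steps between them (Gapdh, Tpi1, Pgk1 and Pkm) are named. From each other list, at most the 2 called genes with the largest difference in each direction are given with values, among those whose arrays do not overlap. Alternatives were other scalings, background correction (normexp, offset 50), filters, probe choices, thresholds, sets of groups in the fit, Tukey's HSD after a one-way test as in the study's methods, slide, scan day or replicate number as a block, and leaving out each array. The test was checked on simulated data. Genome coordinates are given only for the RefSeq promoter windows (GRCm38.p6). A result for 1 gene of the list of other glycolysis genes is not reported here.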

Additional observations from a re-analysis of the deposited data

Results flagged for a closer look

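Among 70 sets of arrays (10 enzymes in 7 groups), 8 held an array whose distance from its nearest neighbour was large for the range of the group (Dixon's test at the 95% level, which chance passes in about 1 in 20 sets). Hk1 stood at 1.67 in Spi-C NT 0.1 replicate 3, against 2.14 to 2.20 in the others of its group. Hk2 stood at 3.45 in Spi-C NT 1.0 replicate 4, against 2.80 to 2.84. Gpi1 stood at 3.30 in TSA(-) replicate 2, against 2.64 to 2.83. Aldoa stood at 0.75 in OC replicate 2, against 0.11 to 0.34, and at 4.22 in TSA(-) replicate 7, against 3.19 to 3.65. Eno1 stood at -4.40 in TSA(+) replicate 5, against -3.44 to -3.22, and at -4.81 in Spi-C NT 0.1 replicate 2, against -4.10 to -4.02. Ldhb stood at 6.33 in Spi-C NT 0.1 replicate 2, against 6.55 to 6.60. Leaving out any of these 8 arrays changed no call of the enzyme concerned.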

How the results depend on the processing

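Of 100 enzyme and comparison pairs, 72 kept their direction and side of the threshold under all 14 other settings, and 28 changed under at least 1. The number of enzymes called stayed within 1.5 times the reported one in 132 of 140 cases. The exceptions were TSA(+) minus IVF (5 at an adjusted p under 0.05 and 5 with the groups compared alone, against 3), TSA(+) minus TSA(-) (1 at 0.05 and 1 by Tukey's HSD, against 0), Spi-C NT minus TSA(-) (5 at 0.05, 6 with median centring and 1 with all 7 groups in 1 fit, against 3) and Spi-C NT minus IVF (3 with all probes of a gene averaged, against 6). The direction turned for Eno1 with normexp in IVF minus OC (-0.47) and TSA(-) minus OC (-0.12), for Pgam1 in IVF minus OC with quantile normalization (1.18) and in TSA(-) minus OC with median centring (-0.57), and for Hk1 in Spi-C NT minus IVF with all probes averaged (0.14). The cause was not tested. Leaving out 1 array gave 9 to 9 enzymes called for Cumulus minus IVF and TSA(-) minus OC, 9 to 10 for Cumulus minus OC and IVF minus OC, 5 to 6 for Spi-C NT minus IVF, 3 to 4 for Spi-C NT minus TSA(-) and TSA(+) minus IVF, 2 to 3 for TSA(-) minus IVF and 0 to 0 for the other comparisons. Besides the losses given with the results, calls were gained for Gpi1 in Spi-C NT minus TSA(-) without TSA(-) replicate 4, Hk2 in Cumulus minus OC without OC replicate 2 and Hk2 in TSA(+) minus IVF without TSA(+) replicate 3.

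Same-numbered arrays showed little sign of deviating together (correlations from -0.09 to 0.15, against -0.13 to 0.13 for arrays of other numbers). The values thus gave no clear sign of a pairing by replicate number. They cannot show that same-numbered pools were collected apart. With the replicate number as a block, 4 calls were lost: Pgam1 in IVF minus OC (-0.51, adjusted p = 0.0122) and TSA(-) minus IVF (0.56, adjusted p = 0.0217), Ldha in Spi-C NT minus IVF (-0.38, adjusted p = 0.0127) and Eno1 in Spi-C NT minus TSA(-) (-0.75, adjusted p = 0.0292). No other call of an enzyme changed with the block. Levels near background, as of Eno1 and of Hk1 and Ldha in OC, limit how far their differences can be read.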
